A study of Mus musculus with 5 samples.

Results

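The probes for mmu-miR-322, mmu-miR-424 and mmu-miR-503, microRNAs (miRNAs) of one X-chromosome cluster, were followed through the differentiation of C2C12, an established line of mouse myoblasts that form multinucleate myotubes in low serum. The members were the probes that carry one of these 3 mouse names, which made 3 of the 343 mouse-named probes on the array. Total RNA was extracted with TRIzol at 5 stages: proliferating cells harvested at 70 to 80% confluence, cells at 100% confluence, and cells kept in 2% horse serum for 1, 2 or 4 days. The labels state 4 biological replicates per stage, 2 in each dye, and each replicate shared a 2-colour spotted array with a pool of RNA from 4 proliferating replicates. All 20 arrays come from 1 cell line with no genetic change named in the labels, so the spread between arrays is that between cultures of this line. The pool is the control throughout, and its own spread is not part of any test against it.

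Mature miRNAs are short RNAs that lead the Argonaute proteins to messenger RNAs through their seed, the bases next to the 5′ end, and lower the output of those messages. The miR-322 and miR-503 hairpins are excised from a common primary transcript. Their 5′ arms belong to the extended miR-15/16 group, known for targeting cyclins and the phosphatase Cdc25A, which drive the cell cycle, and the cluster has been tied to the exit of myoblasts from the cell cycle as they differentiate. The rodent miRNA that was once listed as miR-424, after its human counterpart, is now named miR-322-5p, and the older name miR-322 was used for the opposite arm, now miR-322-3p. The array files give names and probe numbers but no probe sequences, so the arm behind each spot rests on this history of the names.

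The mature sequences of the cluster arms and of the other miRNAs with this seed are shown because they set which spots could report related molecules. They are given 5′ to 3′ from RefSeq on GRCm38.p6, with bases 2 to 8, the seed, in capitals.
mmu-miR-322-5p: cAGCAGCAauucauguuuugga
mmu-miR-322-3p: aAACAUGAagcgcugcaacac
mmu-miR-503-5p: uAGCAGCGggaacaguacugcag
mmu-miR-15a-5p: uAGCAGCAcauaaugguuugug
mmu-miR-15b-5p: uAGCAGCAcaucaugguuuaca
mmu-miR-16-5p: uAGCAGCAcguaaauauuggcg
mmu-miR-195a-5p: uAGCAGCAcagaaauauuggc
mmu-miR-497a-5p: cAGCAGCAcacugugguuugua

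The seed of miR-322-5p is shared with miR-15a, miR-15b, miR-16, miR-195a and miR-497a, and 10 of the 1679 mature names in the RefSeq table carry it. The seed of miR-503-5p differs from it by 1 substitution, A8G, counted from 1 at the 5′ end with the base of miR-322-5p first, and no other mature name in the table has the miR-503 seed. From base 2 on, miR-503-5p and miR-322-5p share 6 bases in a row, and along the whole of miR-322-5p 11 of its 22 positions hold the same base. By the same count miR-15b-5p matches miR-322-5p at 16 positions, more than miR-503-5p does. The 3′ arm of the miR-322 hairpin has a seed of its own. Whether a spot also captured a related miRNA was not tested.

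The Mir322 hairpin lies at chrX:53054255-53054349 and the Mir503 hairpin at chrX:53053984-53054054, both on the minus strand of GRCm38.p6, with 200 bases between them. Both, and the Mir351 hairpin a further 630 bases downstream, lie inside the long noncoding RNA gene C430049B03Rik at chrX:53053112-53057190. Mir542 and the 3 Mir450 hairpins follow outside that gene. The arms of the member hairpins are shown in capitals within the precursors, since they place both products of the Mir322 hairpin on 1 molecule.
Mir322: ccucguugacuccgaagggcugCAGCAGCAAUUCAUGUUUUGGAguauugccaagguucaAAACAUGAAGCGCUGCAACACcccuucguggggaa
Mir503: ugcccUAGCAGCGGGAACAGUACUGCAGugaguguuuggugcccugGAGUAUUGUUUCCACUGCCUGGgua

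**Figure D1:**
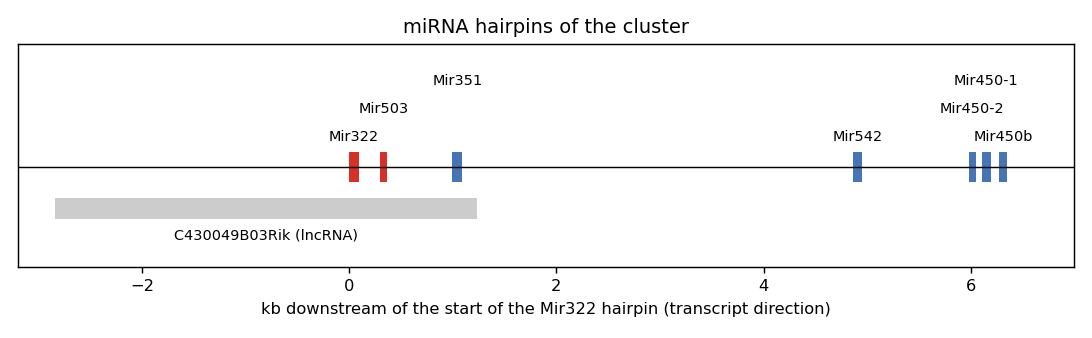
Map of the 7 miRNA hairpins of the cluster by distance in kb downstream of the start of the Mir322 hairpin, in the direction of transcription. The member hairpins (red) and Mir351 lie within the long noncoding RNA gene (grey bar), and the Mir542 and Mir450 hairpins (blue) lie beyond its end.

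The labels do not say which channel of an array held the differentiating sample. It was taken from the authors' deposited values, 1 column per stage: for each stage, the signs of the 4 arrays were those whose mean correlated best with that column over 93 probes, the members left out. The best correlations were 0.827 for confluent cells, 0.959 for day 1, 0.982 for day 2 and 0.988 for day 4, and every stage then had 2 arrays with the sample in each dye, as the labels state. The same signs came out without the muscle miRNAs. The labels place the reference in channel 1 and the sample in channel 2, and the muscle miRNA miR-206 came out higher by 3.17 ± 0.21 (log2, SE, n = 4) at day 1. The direction is therefore likely rather than stated, and with the opposite sign every rise below would be a fall. The proliferating arrays matched their column with a correlation of at most 0.173 and were given no direction.

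The 3 member probes differed in how far they stood above the background. The miR-322 probe was detected in neither channel on any of the 20 arrays, a probe counting as detected when 1 of its 2 spots exceeded a limit, the 95th percentile over spots without a matching probe (empty or negative controls) in that channel. Its background-subtracted intensity ran from 44 to 288, and its nearest approach was 79.7% of the limit. The miR-424 probe was detected in at least 1 channel on 17 arrays, with intensities of 162 to 684. The miR-503 probe was detected in both channels on all 20 arrays, at 854 to 2873 and a median of 6.65 times the limit. Intensities of different probes also depend on the probes, so they do not rank the 3 miRNAs by abundance.

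**Figure D2:**
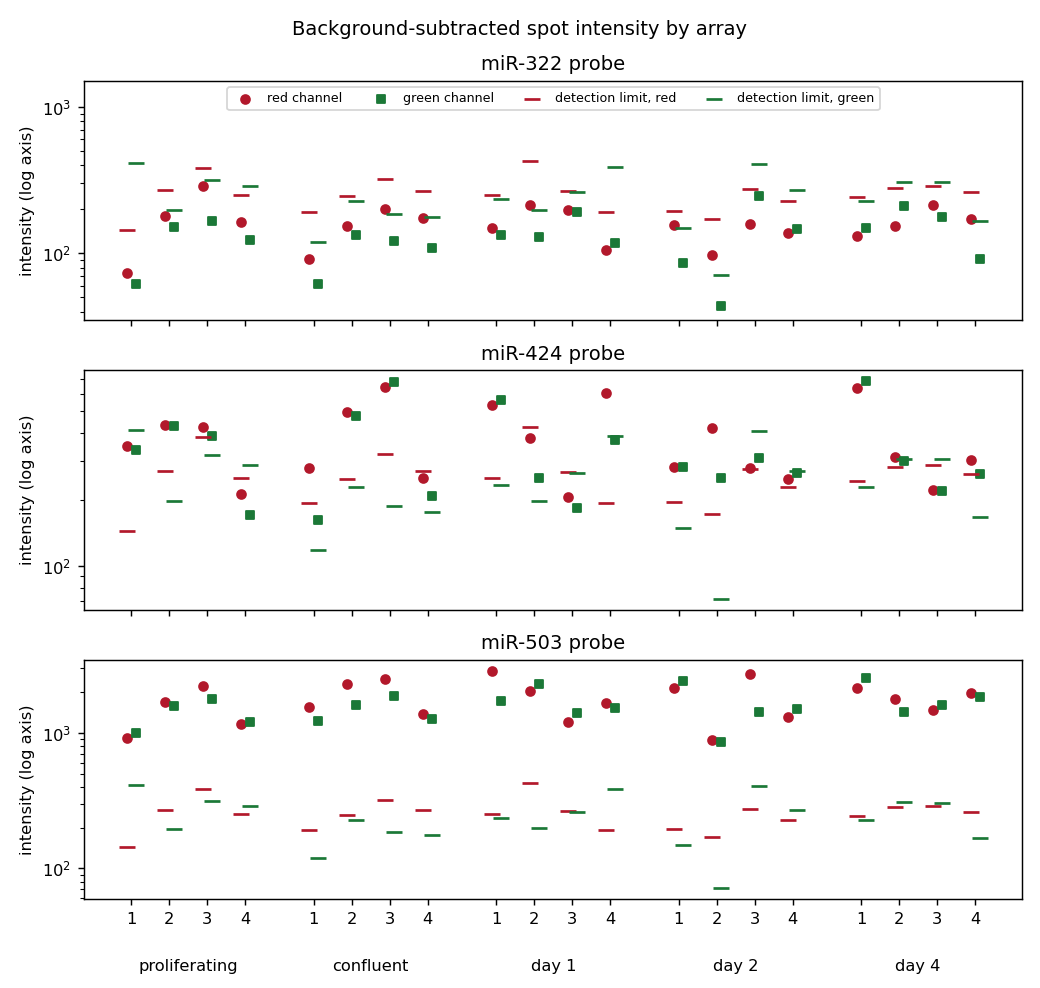
Background-subtracted intensity (log axis) of the 3 member probes on each of the 20 arrays, in the red and the green channel, with the detection limit of that array and channel as a dash. The miR-322 points all lie below their limits, the miR-424 points lie around them, and the miR-503 points all lie above them.

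Because the miR-322 probe stayed below the limit, it was not among the 180 mouse probes tested, and it gives no level at any stage. Its sample intensities had medians of 116 in confluent cells, 139 at day 1, 122 at day 2 and 142 at day 4, against pool medians of 154, 165, 147 and 191. The samples and the pool overlapped in confluent cells and on days 1, 2 and 4. When all 343 mouse probes were fitted without the filter, the miR-322 log2 ratio to the pool was 0.15 at day 1 and -0.27 at day 4, with limma adjusted p-values of 0.599 and 0.249. The 2 spots of this probe differed by a median of 0.36 on the log2 scale, against 0.15 for miR-503 and 0.09 for miR-424.

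miR-503 was higher than the pool on the first day of differentiation. At day 1 the sample intensities on arrays 1 to 4 were 2873, 2286, 1411 and 1658, and those of the pool on the same arrays were 1731, 2021, 1213 and 1526. The sample was the brighter channel on all 4 arrays. After loess normalisation and removal of the probe's dye effect, the log2 ratios of sample to pool were 0.76, 0.45, 0.49 and 0.02. The mean was 0.43 ± 0.11 (SE, n = 4), a 1.35-fold rise with a 95% interval of 0.19 to 0.66 in log2 (limma, adjusted p = 0.0102 over 180 probes). The SD between the 4 arrays was 0.31, and the array with the smallest ratio lay close to no change. In bulk RNA, a change in the share of cells that make a miRNA and a change in its amount per cell cannot be told apart.

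At day 1, 15.6% of the tested probes passed this threshold in either direction, 10.6% of the tested probes were called as higher, and 20.6% had all 4 arrays above the pool. Of the 2 tested members 1 was called, a count too small to read against that share, and by p it stood at rank 17 of 180. The call did not hold under 11 of the 22 tested alternatives, among them leaving out array 1 (log2 0.31, adjusted p = 0.119), leaving out array 2 (0.42, adjusted p = 0.0582) and turning the arrays by the distance rule described with the processing (0.19, adjusted p = 0.545). At day 1 that rule differed on array 3, where it took red as the sample while miR-206 was 10892 in green and 1406 in red. The ratio was above 0 in all 23 alternatives, which share arrays.

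At day 2 the miR-503 sample intensities were 2414, 882, 2739 and 1507 against 2145, 854, 1421 and 1313 in the pool. The log2 ratios were 0.29, 0.20, 0.55 and 0.17, again all above 0, which held for 17.2% of the tested probes. Their mean of 0.30 ± 0.11 (SE, n = 4) did not pass the test (limma, adjusted p = 0.0632), in a comparison where 20% of the tested probes did. It passed under 3 alternatives, which were print-tip loess, spot means and repeat spots kept apart.

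At day 4 the miR-503 ratios fell on both sides of the pool, at -0.26, 0.22, 0.17 and -0.25, with a mean of -0.03 ± 0.11 (SE, n = 4; limma, adjusted p = 0.894). The interval of the difference ran from -0.26 to 0.20. In confluent cells, before serum was lowered, the ratios were -0.01, 0.19, -0.12 and 0.01 and the mean was 0.02 ± 0.11 (SE, n = 4; limma, adjusted p = 0.952). Of all tested probes, 28.3% were called at day 4 and 0.556% in confluent cells. On the proliferating arrays, which carry proliferating RNA in both channels, the red over green log2 ratio of miR-503, after removal of the dye effect, lay between -0.17 and -0.02.

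The stage means of miR-503 ordered as day 1, day 2, confluent and day 4. None of the neighbours in this order differed beyond the test. Day 2 lay below day 1 by a log2 difference of -0.13 ± 0.16 (SE; limma, adjusted p = 0.901), and day 2 lay above confluent cells by 0.28 ± 0.16 (adjusted p = 0.374). Day 4 against confluent cells gave -0.05 ± 0.16 (adjusted p = 0.892). Between the ends of the order, day 4 against day 1 gave -0.46 ± 0.16 (SE; limma, adjusted p = 0.0682), where 8.89% of the tested probes were called. That comparison passed without day 1 array 4 (-0.61, adjusted p = 0.0171) or without day 4 array 2 (-0.55, adjusted p = 0.0454). Day 1 against confluent cells gave 0.41 ± 0.16 (adjusted p = 0.188), with 3.89% of probes called. These steps share the arrays of the stages that they join.

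**Figure D3:**
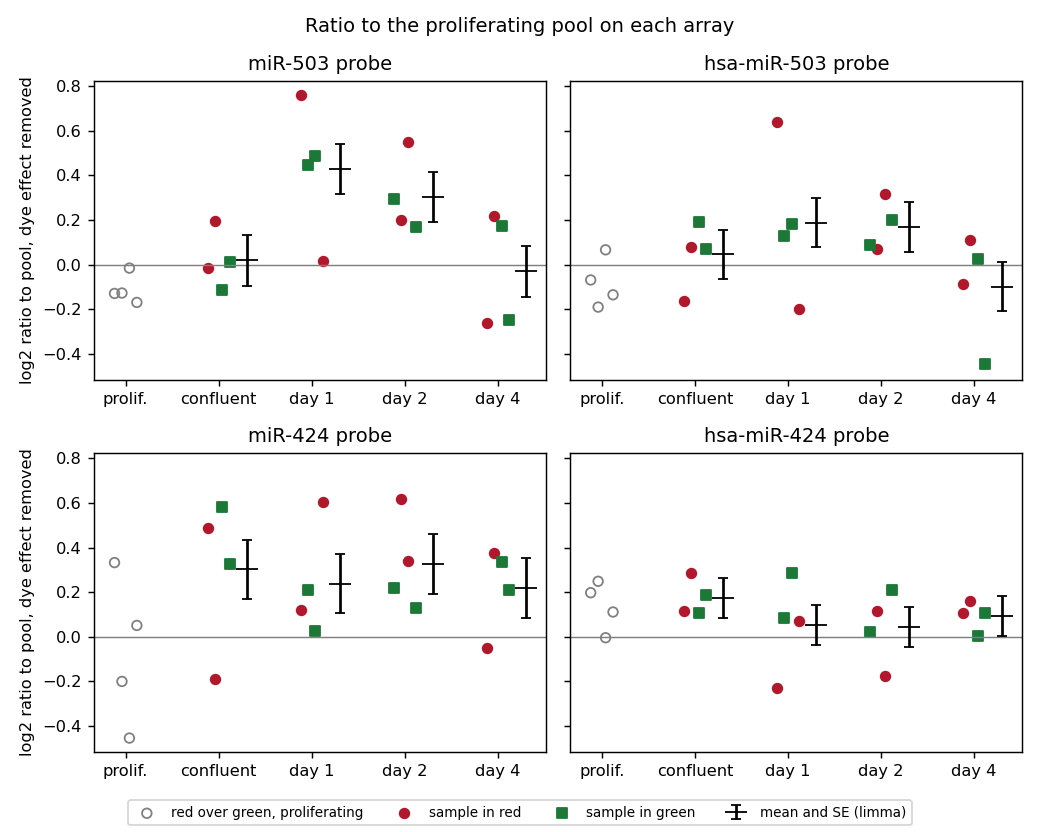
Log2 ratio to the pool, dye effect removed, on each array for the mouse and human-named probes of miR-503 and miR-424, with filled points coloured by the channel that held the sample and the limma mean and SE beside them. The open points are red over green on the proliferating arrays, also with the dye effect removed, and have no direction. The miR-503 points lie above 0 on all 4 arrays at days 1 and 2, and spread on both sides of 0 at day 4.

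miR-424, the older name of the 5′ arm of the miR-322 hairpin, passed the test at no stage. At day 1 its sample intensities were 537, 250, 184 and 604 against 564, 378, 206 and 373 in the pool, and the log2 ratios were 0.12, 0.21, 0.03 and 0.60. The mean of 0.24 ± 0.13 (SE, n = 4) had an adjusted p of 0.260 in limma. All 4 ratios lay above 0 after normalisation, while the sample was the brighter channel before it on 1 array.

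At day 2 the miR-424 sample intensities were 280, 421, 277 and 265 against 281, 252, 308 and 248 in the pool. The ratios were 0.22, 0.62, 0.34 and 0.13, and the mean of 0.33 ± 0.13 (SE, n = 4) missed the threshold (limma, adjusted p = 0.0960). At day 4 they were -0.05, 0.37, 0.34 and 0.21, with a mean of 0.22 ± 0.13 (adjusted p = 0.284). Confluent cells gave 0.49, -0.19, 0.58 and 0.33, with a mean of 0.30 ± 0.13 (adjusted p = 0.513). The 4 stage means thus lay within 0.22 to 0.33, and the largest step between stages was -0.11 ± 0.19 (SE), from day 2 to day 4 (limma, adjusted p = 0.909).

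The spread behind these miR-424 values was wide. On the proliferating arrays its red over green log2 ratio, after removal of the dye effect, ran from -0.45 to 0.33. On the sample side the probe was detected on 4 arrays in confluent cells, 3 at day 1, 4 at day 2 and 3 at day 4. The day 2 mean was smaller in size than this dye-corrected ratio on 2 of the 4 proliferating arrays.

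The array also carried probes named only for the human miRNAs, which serve as a separate spot for each name. The human-named miR-503 probe was detected on all 20 arrays, at a median of 9.36 times the limit. Its sample intensities at day 1 were 5040, 1801, 2265 and 2004 against 2738, 2222, 2564 and 1884 in the pool. Before normalisation the sample was thus the brighter channel on arrays 1 and 4 only. The log2 ratios of this probe at day 1 were 0.64, 0.13, 0.18 and -0.20. Its means were 0.19 ± 0.11 at day 1, 0.17 ± 0.11 at day 2 and -0.10 ± 0.11 at day 4 (SE, n = 4; limma, adjusted p = 0.288, 0.447 and 0.718 over 370 probes with no mouse name). These means stood in the same order as those of the mouse probe, were smaller at days 1 and 2, and passed no test. Across the 12 arrays of days 1, 2 and 4 the ratios of the mouse and human-named miR-503 probes correlated with r = 0.892, array 1 of day 1 being the highest for both. Both spots share the array, its normalisation and its RNA.

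The human-named miR-424 probe gave log2 means of 0.05 at day 1, 0.04 at day 2, 0.09 at day 4 and 0.18 in confluent cells, each with an SE of 0.09. It was detected in at least 1 channel on 18 arrays, at intensities of 124 to 625. Its ratios did not follow those of the mouse miR-424 probe (r = -0.110, 12 arrays). In the non-mouse set, 9.73% of the probes were called at day 1, 7.03% at day 2, 13.5% at day 4 and 0.27% in confluent cells, and neither human-named probe was among them.

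In the authors' deposited table, miR-503 stood at 0.39 for day 1, 0.26 for day 2, -0.03 for day 4 and 0.05 for confluent cells. The authors' deposited table gave 0.17, 0.12, -0.01 and 0.11 for miR-424 at the same stages. The day 4 value for miR-424 was thus near 0 there, against 0.22 from the scanner intensities. The column medians in the authors' deposited table lay between -0.02 and 0.00, and the confluent, day 1, day 2 and day 4 columns ran with the array means at slopes of 0.86 to 0.90, on a log2 scale. The slope of the proliferating column was 0.127. How the authors' deposited table was normalised, and its sign, are not stated.

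Of the cluster neighbours, 3 of 7 probes were tested. miR-351, whose hairpin follows Mir503 inside the same noncoding gene, was higher at day 2: its ratios of 0.15, 0.25, 0.36 and 0.33 had a mean of 0.27 ± 0.09 (SE, n = 4; limma, adjusted p = 0.0277). At that day 12.8% of all tested probes were called as higher. Its means were 0.18 at day 1 (adjusted p = 0.183), 0.13 at day 4 (adjusted p = 0.320) and -0.01 in confluent cells (adjusted p = 0.956). The day 2 call was lost under 13 alternatives, including leaving out array 2, 3 or 4 of that stage, with adjusted p-values of 0.0596, 0.126 and 0.113. miR-351 does not share the seed of the members. Its ratios correlated with those of miR-503 with r = 0.428 and of miR-424 with r = 0.245 over the 12 arrays. Probes from outside the cluster reached values of this size on the same arrays. For miR-503, r was 0.532 with miR-15b and 0.00277 with miR-16. For miR-424, r was 0.136 with miR-15b and 0.38 with miR-16.

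The miR-542 probes, which the files spell without the hyphen before the arm, were both tested. miR-542-3p gave -0.23 ± 0.10 at day 1 (SE; adjusted p = 0.169), -0.15 at day 2 and 0.07 at day 4, and miR-542-5p lay between 0.04 and 0.16 at the 4 stages. Neither passed the test at any stage. The 4 miR-450 probes were each detected on 4 or 5 arrays and were not tested. Over the cluster list, 0 of 3 tested probes were called at day 1, 1 of 3 at day 2 and 0 of 3 at day 4, where 15.6%, 20% and 28.3% of all tested probes were called. The median of all 180 probes was 0.00 at day 1, -0.00 at day 2 and 0.02 at day 4.

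**Figure D4:**
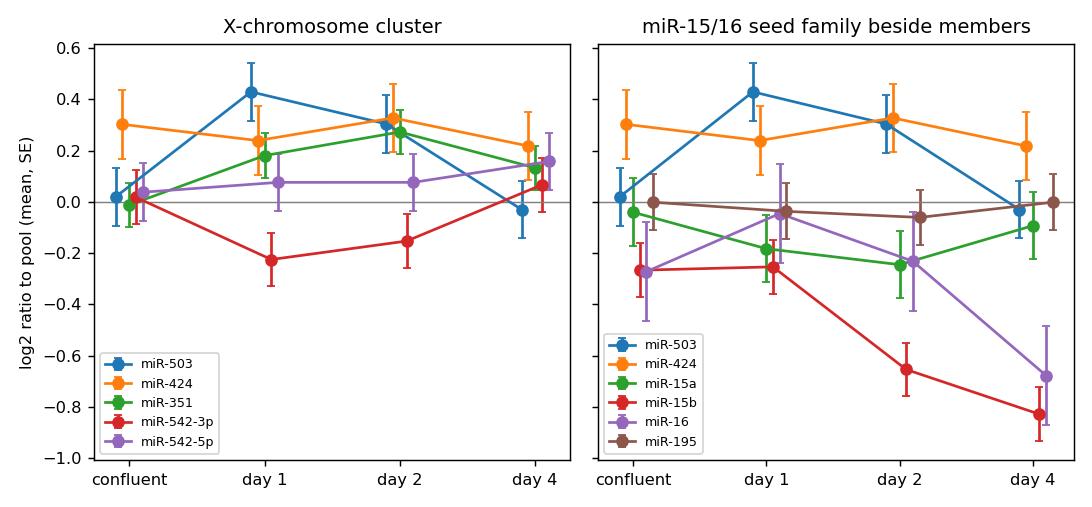
Mean log2 ratio to the pool with its SE (limma, 4 arrays per stage) for the cluster probes (left) and for the members beside the other probes with the miR-322-5p seed (right). The miR-503 mean is largest at day 1 and near 0 at day 4, the miR-424 mean lies between 0.22 and 0.33 at every stage, and miR-15b and miR-16 lie at -0.83 and -0.68 at day 4.

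Of the 5 probes of the miR-15/16 list, which share the seed of miR-322-5p, 4 were tested. miR-15b, encoded beside miR-16 on chromosome 3, fell at days 2 and 4. Its sample intensities at day 4 were 729, 333, 289 and 487 against 1550, 695, 347 and 824 in the pool, and the sample was the dimmer channel on all 4 arrays. The log2 ratios at day 4 were -0.88, -0.90, -0.56 and -0.97, all below 0 as for 19.4% of the tested probes, with a mean of -0.83 ± 0.10 (SE, n = 4; limma, adjusted p = 1.01e-06). At day 2 the mean was -0.65 ± 0.10 (adjusted p = 4.49e-05) and at day 1 -0.25 ± 0.10 (adjusted p = 0.112).

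miR-16 fell at day 4, with ratios of -0.69, -1.10, -0.52 and -0.40 and a mean of -0.68 ± 0.19 (SE, n = 4; limma, adjusted p = 0.00900). Before normalisation and removal of the dye effect, the sample was the brighter channel on array 3 (334 against 324) and array 4 (1840 against 1508). That call at day 4 was lost under 6 alternatives. They include no dye term (-0.68, limma adjusted p = 0.184) and leaving out day 4 array 2 (-0.53, adjusted p = 0.0872). miR-15a and miR-195 passed no test, with means of -0.25 to -0.04 and -0.06 to 0.00 over the 4 stages. The miR-497 probe was detected on 2 arrays and was not tested. In the list, 0 of 4 tested probes were lower at day 1, 1 of 4 at day 2 and 2 of 4 at day 4, where 5%, 7.22% and 12.8% of all tested probes were lower.

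The 2 tested members were set against each other on the same arrays, over the 12 arrays of days 1, 2 and 4, with a two-sided exact sign-flip permutation test. miR-503 and miR-424 differed by a mean log2 ratio of -0.03 (SD 0.43, n = 12; exact p = 0.825), with miR-503 the higher on 6 of 12 arrays. The ratios in this test kept their dye effects, which cancel in the mean but enter the SD and the count of arrays. By stage, with the dye effects removed, miR-503 minus miR-424 was 0.19 ± 0.54 at day 1, -0.02 ± 0.27 at day 2 and -0.25 ± 0.14 at day 4 (SD, n = 4). The mean over the stages therefore covers unlike values.

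Beside miR-15b and miR-16, which were chosen for this after their values were seen, the differences are a description with no test. The ratio of miR-503 to the pool minus that of miR-15b averaged 0.81 (SD 0.34) over the 12 arrays, and that of miR-424 minus miR-15b 0.84 (SD 0.51). Against miR-16 the mean differences were 0.55 (SD 0.87) for miR-503 and 0.58 (SD 0.97) for miR-424. The SDs given here are of ratios with the dye effects left in, so they are not the spread between arrays alone. The dye effect was -0.49 for miR-16, 0.07 for miR-503 and 0.22 for miR-424. The mean differences compare changes relative to the pool and set no level of one probe against another.

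Among the 179 other tested mouse probes, the array-to-array ratios most like those of miR-503 over the 12 arrays were miR-192 (r = 0.828), miR-693-5p (r = 0.733) and miR-183 (r = 0.650), and the least like were those of miR-23b (r = -0.836). miR-23b was itself higher at all 3 days, at 0.42, 0.52 and 0.71, and miR-183 was lower at day 4 by a log2 difference of -0.73. For miR-424 the most alike were miR-20b (r = 0.786), miR-199a (r = 0.779) and miR-710 (r = 0.748), and the least alike was miR-685 (r = -0.805). miR-424 and miR-503 correlated with each other with r = -0.0418. All of these points share arrays, RNA and normalisation, and no p is attached to them.

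The member changes were small beside those of the muscle miRNAs. The muscle miRNA miR-206 had means of 3.17, 3.77 and 4.16 at days 1, 2 and 4, and the spot for miR-133a and miR-133b, miRNAs of striated muscle, 2.45, 3.57 and 3.86. miR-1 stood at 0.33, 1.85 and 2.07. By p, which does not change when the sign of every array is turned, miR-503 ranked 17 of 180 at day 1, 38 at day 2 and 159 at day 4, and miR-424 ranked 61, 43 and 75. The median size of the log2 ratio over all tested probes was 0.14 at day 1, 0.16 at day 2 and 0.15 at day 4. The means of both members were larger in size than that median at days 1 and 2, and at day 4 that of miR-424 was.

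**Figure D5:**
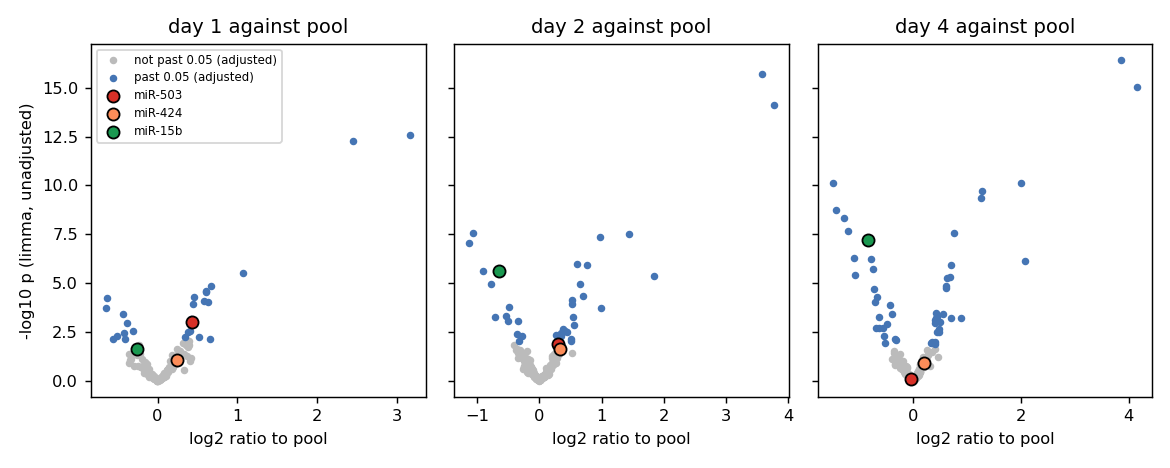
Log2 ratio to the pool against -log10 of the unadjusted limma p for all 180 tested mouse probes at days 1, 2 and 4, with probes past the adjusted threshold in blue and miR-503, miR-424 and miR-15b enlarged. miR-503 lies among the called probes at day 1 only, miR-424 in none of the 3 panels, and miR-15b among the called probes at days 2 and 4.

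Markers of other cells were read at day 1, beside the miR-503 result. Of the 4 smooth muscle and fibroblast miRNAs, 1 was higher, miR-143, and the summed intensity of the list was 3163 to 7126 in the samples and 2991 to 4937 in the pool. Of 6 blood miRNAs 2 were tested and 1, miR-150, was higher, the sum being 872 to 1340 in the samples and 702 to 2199 in the pool. Of the neuronal, epithelial and embryonic stem cell lists 1 probe each was tested and 0 were called, and of the endothelial and liver lists 0 were tested. The sum of the embryonic stem cell list was 8527 to 12956 in the samples and 7590 to 10468 in the pool. For the neuronal list it was 620 to 685 in the samples and 675 to 1185 in the pool. The epithelial sums were 620 to 1004 and 746 to 1568. The part of these markers in the miR-503 result was not tested.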

How the data were processed

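The authors deposited, per the file headers, linear spot intensities (median and mean foreground, morphological background) of both channels, not normalised, with 1 file per array. They also deposited a table of the whole series with 1 column per stage, whose values behave as log2 ratios. The scanner and image software are not given in the sources used here. Medians were background-corrected (normexp, offset 50), normalised within each array by global loess (weight 0 for controls), and averaged over 2 repeat spots with limma 3.58.1 in R 4.3.3. A probe was tested when it was detected in the sample channel on at least 3 of the 4 arrays of a stage, which kept 180 of 343 mouse probes. On the proliferating arrays, which were given no direction, detection in either channel counted. All 20 arrays entered one lmFit and eBayes model with a dye term and an effect per stage (15 residual degrees of freedom, median prior 7.30), with two-sided Benjamini-Hochberg adjustment at 0.05. The fit was tested on simulated ratios with independent noise and known sample channels. That test cannot check the sample channels taken here.

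The planned rule for the sample channel, the channel farther from the proliferating arrays in correlation, gave 3 red and 1 green array at day 1 against the labelled 2 and 2. The signs of the authors' table replaced it, also for confluent cells, which the plan gave by size only, and the planned rule became an alternative. It gave the same side on 11 of the 12 arrays of days 1, 2 and 4, but on 6 of these 12 its side rested on the muscle miRNAs. In confluent cells it took red as the sample on all 4 arrays and gave the same side on 2 of them. Named probes were every probe of the 3 names, of the seed and cluster lists, the 3 most and 1 least alike per tested member, and miR-206, miR-133a and miR-1. The members and lists were chosen with earlier results of these data known. Alternatives covered background, normalisation, foreground, filter, repeat spots, dye term, arrays left out, sample channel and control. Precision is limited by 4 arrays per stage.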

Additional observations from a re-analysis of the deposited data

Results flagged for a closer look

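In 4 of 55 sets of 4 arrays (11 probes at 5 stages), 1 array stood apart from the other 3 by Dixon's criterion, where chance gives about 1 in 20. None was a member probe. miR-542-3p stood at 0.30 on confluent array 3, the others lying between -0.09 and -0.05, and at 0.11 on day 2 array 1, the others lying between -0.27 and -0.21. miR-542-5p stood at -0.33 on confluent array 1, the others at 0.14 to 0.17. miR-351 stood at 0.30 on day 4 array 2, the others at 0.06 to 0.09.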

How the results depend on the processing

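Of 1282 values under the alternatives, 1218 kept their direction and side of the threshold or stayed within the spread, 30 lost a call, 19 gained one, 12 changed sign and 3 moved; a sign change of an uncalled value within 1 SE of 0 was not counted. The miR-503 call at day 1 was lost with median centring (0.46), no dye term (0.43), the distance rule chosen as an alternative after the data were seen (0.19), and the proliferating arrays as control in each of the 6 ways to turn them (0.41, 0.47, 0.47, 0.39, 0.39 and 0.45). With 1 array left out it ran from 0.31 to 0.58. Day 2 passed for miR-503 with print-tip loess (0.31), spot means (0.32) and repeat spots kept apart (0.30), and for miR-424 with spot means (0.38), repeat spots kept apart (0.33) and the control with red samples on arrays 2 and 3 (0.59). Day 4 against day 1 passed for miR-503 with no background correction (-0.46), spot means (-0.47) and repeat spots kept apart (-0.46), and ran from -0.61 to -0.34 with 1 array left out. With the control turned on arrays 1 and 4, miR-424 was -0.0206 at day 1 and -0.0419 at day 4; in the authors' deposited table its day 4 value was -0.00868. Other controls changed the sign of miR-16 at day 2 (0.0311 and 0.0684) and confluence (0.0278), miR-15a at days 1 and 2 (0.18 and 0.12) and miR-542-5p at day 4 (-0.0642). Other confluent pairings did so for miR-16 (0.12), miR-15b (0.0411) and human-named miR-424 (-0.0221 and -0.0626). With print-tip loess, miR-503 and miR-424 minus miR-16 came to 0.51 and 0.47; they count among the gained calls, but the pairs were chosen after their values were seen and support no call. The cause was not tested for any of these.

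Counts of called probes at day 1 went from 28 to 0 with the distance rule, 5 without the dye term, 12 without arrays whose side rests on muscle miRNAs, 18 and 13 without day 1 array 1 or 2, and 2 to 18 with the other controls. At day 2, 36 became 13 without the dye term and 15 to 23 with 4 of the controls. At day 4, 51 became 28 without the dye term and, with 3 controls, 32 or 33. In confluent cells, 1 became 0 to 7. No paired analysis was possible because the labels carry no replicate numbers that link stages. Signal near background limits miR-424, and signal below it leaves miR-322 without a level.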
